A study of Mus musculus with 35 samples.

Results

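GABA-A receptors are chloride channels opened by GABA and assembled from subunits of several families. Alpha and beta subunits form the GABA binding sites, and a gamma or a delta subunit completes the channel. Medium-spiny neurons (MSNs), the GABAergic main neurons of the striatum, receive fast synaptic inhibition through gamma-containing receptors and a steady, tonic inhibition through extrasynaptic receptors, among which those with alpha-4 and delta subunits are well known. The 8 subunit genes described here are Gabra2, Gabra4 and Gabra5 (alpha), Gabrb1 and Gabrb2 (beta), Gabrg1 and Gabrg3 (gamma) and Gabrd (delta), taken by symbol from a count table of 39017 genes. All 8 were present and all 8 passed the filter on low counts.

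RNA was sequenced from the striata of 35 mice aged 21.71 to 23.0 weeks, with 1 library per mouse. With Hdac2 intact there were 8 Htt+/+ and 7 HttQ111/+ mice, called Hdac2 WT, and with Hdac2 deleted in MSNs 9 Htt+/+ and 11 HttQ111/+ mice, called Hdac2 KO. Each group held males and females. HttQ111/+ mice carry 1 huntingtin allele with an expanded CAG repeat, which measured 110 to 140 units in carriers with Hdac2 and 110 to 144 in carriers without it. Hdac2 KO mice have a floxed Hdac2 gene on both chromosomes together with the D9-Cre transgene, in which the Ppp1r1b promoter drives Cre in MSNs, so that other striatal cells keep Hdac2. Hdac2 WT mice had the floxed alleles without Cre (1 floxed allele in 2 of the Htt+/+ mice), so an effect of the Cre transgene cannot be told apart from that of the Hdac2 deletion. Contrasts 1 and 2 compared Hdac2 KO with Hdac2 WT in Htt+/+ and in HttQ111/+ mice, and contrasts 3 and 4 compared HttQ111/+ with Htt+/+ mice in the Hdac2 WT and Hdac2 KO backgrounds. Contrast 5 compared mice with both changes to mice with neither, and contrasts that have a group in common share its libraries.

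Total counts ranged from 50970712 to 77867348 per library. Hdac2 itself, counted over its whole interval, had 97.6 to 107 CPM (counts scaled by the library's effective total) in Htt+/+ Hdac2 WT, 89.4 to 99.2 in Htt+/+ Hdac2 KO, 95.5 to 111 in HttQ111/+ Hdac2 WT and 89.8 to 101 in HttQ111/+ Hdac2 KO libraries. Its log2 fold change was −0.12 (adjusted p = 0.00198) in contrast 2 and −0.09 (adjusted p = 0.0552) in contrast 1. The deletion removes only part of the gene, which counts over the whole interval do not single out. For the Hdac2 KO mice the paper reports marked depletion of reads over the deleted exons, and loss of HDAC2 protein in the striata of a subset. The 13 MSN markers summed to 8118 to 12274 CPM per library, and the 6 markers of cortical projection neurons to 3.62 to 438 CPM. Cortical markers were highest in HttQ111/+ Hdac2 WT replicate 7 (438 CPM), Htt+/+ Hdac2 KO replicate 6 (168 CPM) and Htt+/+ Hdac2 KO replicate 2 (132 CPM), and results are also given without these libraries where that changes them. RNA was extracted on 6 days. Those of Hdac2 WT mice were 24, 25 and 27 May, and all but 2 KO striata were extracted on 26 May, 31 May or 3 June. The exceptions were 1 KO library of 25 May and 1 of 27 May.

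The subunit genes lie in 4 places of the genome (GRCm38). Gabrg1 (chr5:70751047-70842617, minus strand), Gabra2 (chr5:70961057-71095849, minus), Gabra4 (chr5:71569734-71658308, minus) and Gabrb1 (chr5:71699932-72138389, plus) follow each other on chromosome 5, with gaps of 118, 474 and 41.6 kb between them. Gabrg3 (chr7:56716465-57387188, minus) and Gabra5 (chr7:57407690-57510009, minus) are neighbours on chromosome 7, 20.5 kb apart. Gabrb2 (chr11:42419757-42629028, plus) and Gabrd (chr4:155384980-155398036, minus) stand alone among the 8. Counts cover the whole interval of a gene, introns included. Exons made up 22.0% of the interval in Gabrd, the shortest of the genes, and 1.78% in Gabrg3, the longest. Gm9962 overlaps the last 1190 nt of the Gabra5 interval, with 0.184 to 0.647 CPM, and did not pass the test in contrast 1 (log2 fold change −0.06, adjusted p = 0.933). The 2 genes inside Gabrb1, Gm15617 and Gm15616, had at most 0.175 CPM.

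The promoter windows of 7 of the 8 genes were matched in RefSeq (GRCm38.p6), each 250 bases before to 50 bases after a transcription start. The 3 windows printed here, 5′ to 3′ on the strand of the gene with CpG dinucleotides in capitals, belong to Gabra5 and Gabrb2, which changed in opposite directions with Hdac2 KO, and to Gabra2, which differed between HttQ111/+ mice of different ID series. They cover chr7:57510010-57510309 (minus), chr11:42420190-42420489 (plus, the first of 3 Gabrb2 starts) and chr5:71095800-71096099 (minus).
Gabra5: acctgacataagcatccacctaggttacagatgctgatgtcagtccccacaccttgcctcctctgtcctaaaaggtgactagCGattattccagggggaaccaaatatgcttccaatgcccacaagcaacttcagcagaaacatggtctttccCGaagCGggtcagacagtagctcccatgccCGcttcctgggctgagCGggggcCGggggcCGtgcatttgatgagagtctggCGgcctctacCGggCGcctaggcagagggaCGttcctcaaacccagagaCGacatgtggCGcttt
Gabrb2: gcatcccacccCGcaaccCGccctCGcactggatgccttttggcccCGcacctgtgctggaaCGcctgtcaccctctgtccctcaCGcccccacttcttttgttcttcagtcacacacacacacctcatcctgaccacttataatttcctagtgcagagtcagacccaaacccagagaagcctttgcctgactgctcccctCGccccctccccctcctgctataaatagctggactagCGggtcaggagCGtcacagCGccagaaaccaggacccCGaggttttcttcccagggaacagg
Gabra2: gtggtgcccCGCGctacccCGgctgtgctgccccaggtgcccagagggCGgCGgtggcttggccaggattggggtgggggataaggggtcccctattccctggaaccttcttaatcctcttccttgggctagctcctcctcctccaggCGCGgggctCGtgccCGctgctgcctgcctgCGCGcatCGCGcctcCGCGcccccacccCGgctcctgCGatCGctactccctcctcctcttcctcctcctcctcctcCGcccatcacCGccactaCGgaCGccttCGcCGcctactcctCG

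The Gabra5 window held 13 CpG dinucleotides, the Gabrb2 window 11 and the Gabra2 window 25. Over the 10 windows of the 7 genes the count ran from 3 in Gabrg1 to 25 in Gabra2 and in the upstream start of Gabrb1, against a median of 7 over 32851 windows of the same length. On either strand, the core of the cAMP response element (TGACG) was found in 1 of the 10 windows, the Gabrb2 window printed above, and in 20.8% of all windows. The E-box CACGTG (7.15% of all windows) and the core of the EGR site (GTGGGCG, 7.97%) were in none of the 10. These are matches of letters and describe the windows only.

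Per kb of exon, Gabrd and Gabra4 were the most abundant of the 8 in every group. In Htt+/+ Hdac2 WT striata Gabrd had 52.3 ± 1.83 CPM per exon kb and Gabra4 51.9 ± 4.69 (SD, n = 8), and their ranges overlapped. Gabrb2 followed at 18.9 ± 2.24, apart from both neighbours in the order. Gabra2 (6.85 ± 0.891), Gabra5 (6.33 ± 0.944) and Gabrg3 (6.20, range 5.48 to 6.87) each overlapped the next gene in that order, the last of them Gabrg1 (4.78 ± 0.502). Gabrb1 was lowest, at 2.59 ± 0.194 CPM per exon kb, and overlapped none. In Htt+/+ Hdac2 KO striata the order differed in 2 places. Gabra4 (44.6 ± 3.55) came before Gabrd (40.5 ± 2.24), and Gabra5 (10.8, range 9.10 to 13.1, n = 9) came before Gabra2 (6.97 ± 1.35), with overlapping ranges in both pairs. Intronic reads enter these values, so they are not levels of mature RNA alone.

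**Figure D1:**
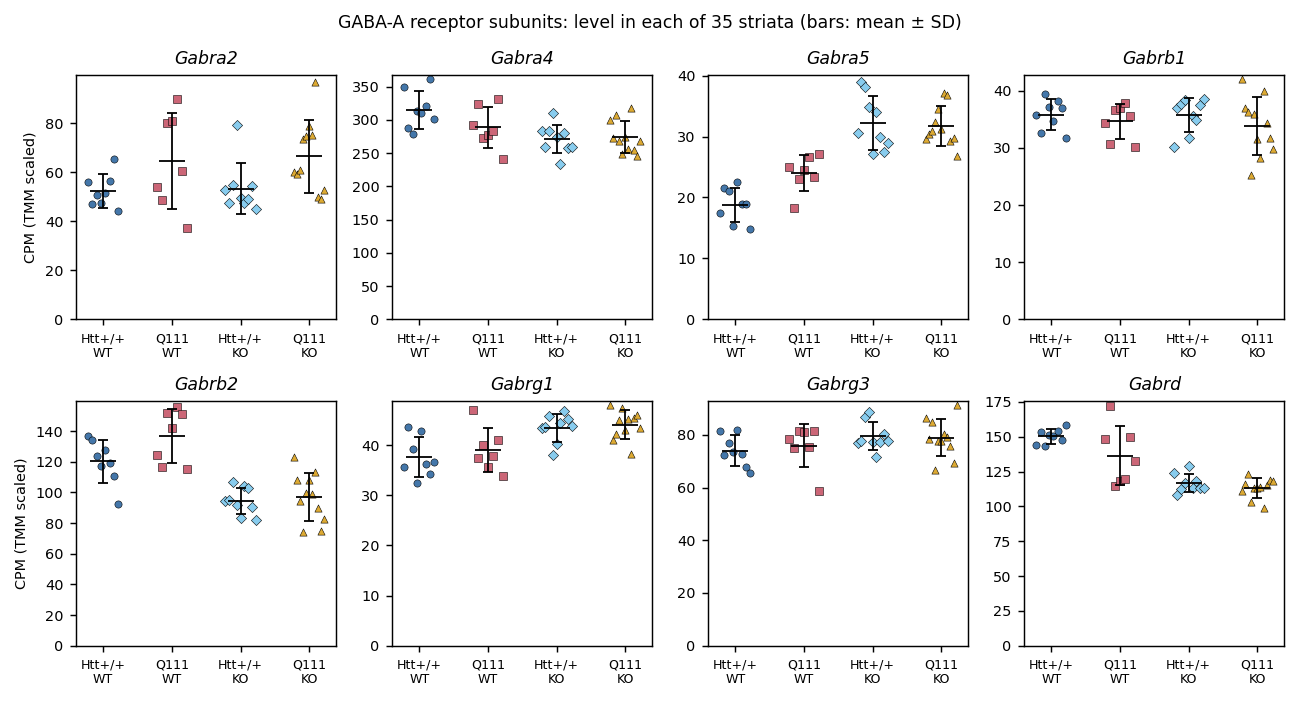
CPM (TMM scaled, linear axis from 0) of each of the 8 subunit genes in the 35 libraries, by genotype group, with 1 point per library and bars for the mean and SD. Gabra5 lies between 27.1 and 39.0 CPM in Htt+/+ Hdac2 KO and between 14.9 and 22.6 in Htt+/+ Hdac2 WT libraries, and Gabrd shows the opposite order without overlap.

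Loss of Hdac2 in MSNs went with more Gabra5 and Gabrg3 RNA and with less Gabrd and Gabrb2 RNA in mice with wild-type huntingtin. Contrast 1 called 4 of the 8 genes, 2 higher and 2 lower, where 17.8% of all 17126 genes tested were called, 9.06% as higher and 8.79% as lower. The largest change was in Gabra5, whose subunit is found in extrasynaptic receptors and carries tonic currents. Gabrd, the delta subunit gene, changed the other way. The median log2 fold change of the 8 genes was 0.06, against −0.0014 over all genes. Their median absolute log2 change was 0.22, against 0.095 over all genes. The 8 genes were chosen with earlier results of these data known. Values over all genes, here and in the contrasts below, therefore give a setting and do not test the 8 as a set. The 5 cortical markers tested had a median log2 fold change of −0.67 in the same contrast, with none called, and without the 3 libraries highest in them the values were 0.66 for Gabra5, −0.50 for Gabrd, −0.25 for Gabrb2 and 0.24 for Gabrg3, all called, while Gabra2 was also called (0.35, adjusted p = 0.0419).

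Gabra5 had 14.9, 18.9 and 22.6 CPM (lowest, median, highest) in Htt+/+ Hdac2 WT and 27.1, 30.6 and 39.0 CPM in Htt+/+ Hdac2 KO libraries. All 9 KO libraries stood above all 8 WT libraries. The log2 fold change was 0.68 (standard error 0.074, adjusted p = 6.71e-08 by the quasi-likelihood F test of edgeR, which gave all p values of the contrasts here, adjusted over all genes tested), a rise of 60.1%. Gabrd had 143, 151 and 158 CPM in the WT and 108, 114 and 129 CPM in the KO libraries, again without overlap. Its log2 fold change was −0.46 (standard error 0.061, adjusted p = 1.72e-06), and 4.64% of 17346 genes were without overlap between these groups in either direction.

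Gabrb2 encodes a beta subunit and had 92.2, 122 and 137 CPM in the WT and 82.2, 94.1 and 107 CPM in the KO libraries. The groups overlapped, and 4 of the 9 KO libraries lay below all WT libraries. Its log2 fold change was −0.29 (standard error 0.075, adjusted p = 0.00720). This call rested in part on 1 control, since without Htt+/+ Hdac2 WT replicate 2 the value was −0.17 (adjusted p = 0.0892). Gabrg3, a gamma subunit gene, had 65.3, 73.1 and 82.0 CPM in the WT and 71.5, 77.7 and 88.8 CPM in the KO libraries. The groups overlapped, and the log2 fold change was 0.19 (standard error 0.053, adjusted p = 0.0118). The Gabrg3 call was lost when any of 9 single libraries was left out and in 7 of 14 alternatives.

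The other 4 genes did not pass the test in contrast 1. The log2 fold change was 0.25 for Gabra2 (adjusted p = 0.117), −0.11 for Gabra4 (adjusted p = 0.0963), 0.10 for Gabrg1 (adjusted p = 0.327) and 0.02 for Gabrb1 (adjusted p = 0.832). The 95% intervals were 0.04 to 0.47 for Gabra2, −0.20 to −0.02 for Gabra4, −0.03 to 0.22 for Gabrg1 and −0.08 to 0.12 for Gabrb1. Gabra4 and Gabrg1 each passed in 6 of 14 alternatives, Gabra4 as lower and Gabrg1 as higher, all of them with other terms or libraries than the 9 surrogate variables over all mice. In CPM, 5 of the 9 KO libraries lay below all WT libraries for Gabra4 and 5 lay above all of them for Gabrg1. For Gabra2 only 1 KO library lay above all WT libraries. The log2 ratio of its group means in CPM was 0.025, so the value of 0.25 arose only with the surrogate variables in the fit. Over the 14 alternatives Gabra2 ran from −0.21, with extraction date, to 0.35, and it passed in 3.

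In HttQ111/+ mice, loss of Hdac2 went with the same direction of change in Gabra5, Gabrb2 and Gabrd. Contrast 2 called these 3 of the 8 genes, 1 higher and 2 lower, where 16.5% of all 17169 genes tested were called, 7.68% as higher and 8.86% as lower. The median log2 fold change of the 8 genes was 0.03, against −0.0044 over all genes. Contrasts 1 and 2 have no library in common. MSN markers summed to a median of 8720 CPM in HttQ111/+ Hdac2 WT and 10195 CPM in HttQ111/+ Hdac2 KO libraries. Their part in the values of contrast 2 was not tested.

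Gabra5 had 18.3, 24.6 and 27.2 CPM in HttQ111/+ Hdac2 WT and 26.8, 30.8 and 37.1 CPM in HttQ111/+ Hdac2 KO libraries. Of the 11 KO libraries, 10 lay above all 7 WT libraries. None of the 8 genes was without overlap between these groups, where 1.42% of all genes were. The log2 fold change was 0.47 (standard error 0.066, adjusted p = 4.45e-06). Gabrb2 had 115, 142 and 156 CPM in the WT and 74.1, 98.7 and 123 CPM in the KO libraries, and 10 of 11 KO libraries lay below all WT libraries. Its log2 fold change was −0.40 (standard error 0.066, adjusted p = 5.55e-05).

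Gabrd had 115, 133 and 172 CPM in HttQ111/+ Hdac2 WT and 99.0, 114 and 123 CPM in HttQ111/+ Hdac2 KO libraries. The spread was wide in the WT group, and 6 of 11 KO libraries lay below all of it. The log2 fold change was −0.35 (standard error 0.054, adjusted p = 2.13e-05). Leaving out any single library kept the calls of Gabra5, Gabrb2 and Gabrd in this contrast, with values of 0.45 to 0.54, −0.44 to −0.36 and −0.38 to −0.30. Gabra2 (0.18, adjusted p = 0.204), Gabrg3 (0.06, adjusted p = 0.404), Gabrg1 (0.06, adjusted p = 0.541), Gabra4 (−0.05, adjusted p = 0.432) and Gabrb1 (0.0026, adjusted p = 0.981) did not pass.

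**Figure D2:**
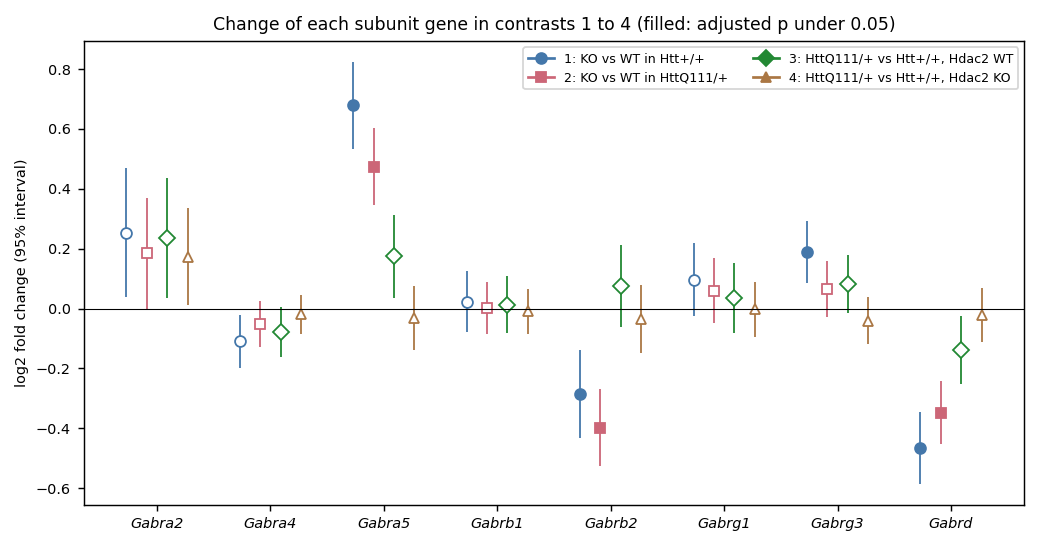
Log2 fold change of each subunit gene (points) with its 95% interval (lines) in contrasts 1 to 4, filled where the adjusted p is under 0.05. Filled points occur in contrast 1 for Gabra5 (0.68), Gabrg3 (0.19), Gabrb2 (−0.29) and Gabrd (−0.46), in contrast 2 for Gabra5 (0.47), Gabrb2 (−0.40) and Gabrd (−0.35), and in neither contrast 3 nor contrast 4.

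The day of extraction nearly followed the Hdac2 genotype, and its part in the Hdac2 contrasts can be separated only through 2 libraries. With extraction date as the covariate, contrast 1 called Gabra5 (log2 fold change 0.64, adjusted p = 0.00134) and Gabrd (−0.35, adjusted p = 0.0124), and contrast 2 called 0 of the 8 genes by edgeR. Over all genes this covariate left 822 of 17126 called in contrast 1 and 331 of 17169 in contrast 2, against 3056 and 2841 with the surrogate variables. In contrast 2 the date-adjusted values were 0.24 for Gabra5 (adjusted p = 0.379), −0.38 for Gabrb2 (adjusted p = 0.237) and −0.22 for Gabrd (adjusted p = 0.217). Gabrb2 in contrast 1 was then −0.22 (adjusted p = 0.483).

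On 27 May the single Htt+/+ Hdac2 KO library had 29.0 CPM of Gabra5, against 15.4, 18.9 and 21.0 in the 3 Htt+/+ Hdac2 WT libraries of that day. It had 82.2 CPM of Gabrb2 against 117, 119 and 124, and 113 CPM of Gabrd against 143, 151 and 154. It lay outside the range of the controls of its own day for all 3 genes. That library came from ID series Z (the series is the letter that opens the mouse ID) and the 3 controls from series V. Series and Hdac2 genotype therefore both differed on that day. The 1 Htt+/+ Hdac2 WT library of series Z, extracted on 25 May, had 14.9 CPM of Gabra5, 92.2 of Gabrb2 and 158 of Gabrd. On 25 May the single HttQ111/+ Hdac2 KO library had 29.6 CPM of Gabra5 against 24.6 and 27.2, and 111 CPM of Gabrd against 119 and 133 in the 2 HttQ111/+ Hdac2 WT libraries. Its Gabrb2 level of 123 CPM lay between their 115 and 142. This KO mouse was of series A with 118 repeats. The 2 WT mice were of series V with 131 repeats and of series Z with 113. The series Z library is replicate 7, the highest in cortical markers. Series and repeat length therefore also differed on that day.

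Among KO libraries, Gabra5 also differed by day. The 6 KO libraries of 26 May had 34.6 to 39.0 CPM, and those of the other days 26.8 to 34.1. All 6 came from mice of ID series V. The other 2 KO libraries of series V, extracted on 3 June, had 31.3 and 32.4 CPM.

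**Figure D3:**
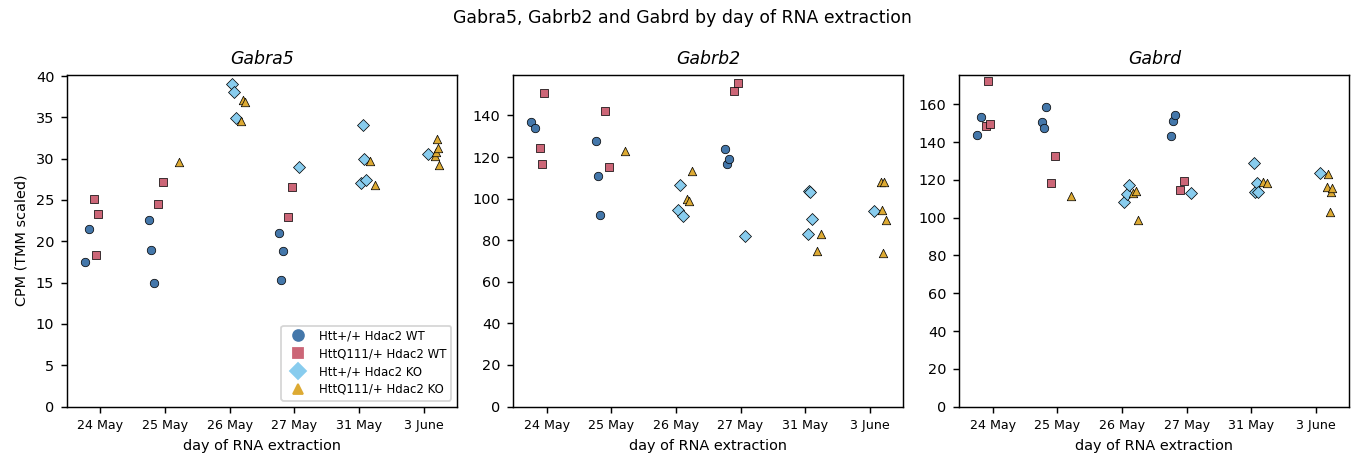
CPM (TMM scaled, linear axis from 0) of Gabra5, Gabrb2 and Gabrd in each library by day of RNA extraction, with 1 marker shape per genotype group. Hdac2 WT libraries fill 24, 25 and 27 May and KO libraries the other days, apart from 1 KO library on 25 May and 1 on 27 May, which has 29.0 CPM of Gabra5 against 15.4 to 21.0 in the Htt+/+ Hdac2 WT libraries beside it.

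Within ID series the Hdac2 differences were estimated in a fit of genotype by series (V against A and Z) with sex and without surrogate variables, added after the values had been seen. The fit had no term for the day of extraction or for series A against series Z. In Htt+/+ mice the Hdac2 WT libraries of that class were 2 of series A and 1 of series Z. The Htt+/+ Hdac2 KO libraries were 1 of series A and 5 of series Z, so these series were not balanced over Hdac2 genotype. In series V no day held both Hdac2 WT and KO libraries, so day and Hdac2 genotype cannot be told apart there. Gabra5 was higher with Hdac2 KO in all 4 comparisons. The log2 fold change in Htt+/+ mice was 0.95 (adjusted p = 4.86e-07) in series V and 0.72 (adjusted p = 3.54e-05) in series A and Z, where 8.37% and 11.1% of genes were called. In HttQ111/+ mice it was 0.47 (adjusted p = 0.0117) in series V and 0.33 (adjusted p = 0.0295) in series A and Z, where 5.73% and 9.68% were called.

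Gabrd was lower with KO in Htt+/+ mice of both classes, by −0.40 (adjusted p = 3.41e-05) in series V and −0.36 (adjusted p = 5.20e-05) in series A and Z. In HttQ111/+ mice it was −0.36 (adjusted p = 1.55e-05) in series A and Z and −0.12 (adjusted p = 0.237) in series V. Gabrb2 passed in HttQ111/+ mice of series V (−0.59, adjusted p = 0.00768) and of series A and Z (−0.41, adjusted p = 0.0212). In Htt+/+ mice Gabrb2 passed in series A and Z (−0.38, adjusted p = 0.0499) and had a value of −0.30 in series V (adjusted p = 0.182). In Htt+/+ mice of series A its mean was 135 CPM in 2 Hdac2 WT libraries, against 94.1 in 1 KO library. In those of series Z it was 92.2 CPM in 1 WT library, against a mean of 92.5 in 5 KO libraries.

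With surrogate variables and all 35 libraries in the fit, none of the 8 genes was called for the HttQ111 allele in either Hdac2 background. In contrast 3 edgeR called 0 of 8, where 0.403% of all genes were called, and DESeq2 also called 0. At an unadjusted p under 0.05 there were 3 of 8, where 10.9% of all genes were. These were Gabra2 (log2 fold change 0.23, p = 0.0294, adjusted p = 0.387), Gabra5 (0.17, p = 0.0191, adjusted p = 0.339) and Gabrd (−0.14, p = 0.0235, adjusted p = 0.358). With ID series as the covariate contrast 3 called Gabra2 (0.36, adjusted p = 0.0363), Gabra5 (0.40, adjusted p = 0.00261) and Gabrd (−0.17, adjusted p = 0.0426), and 837 of all 17133 genes in place of 69. Gabra5 was also called with extraction date (0.36, adjusted p = 0.0114) and without the Htt+/+ Hdac2 WT libraries of series A (0.33, adjusted p = 0.0371). That last fit used surrogate variables too, and it also called Gabrd. In CPM, 6 of the 7 HttQ111/+ Hdac2 WT libraries lay above all Htt+/+ Hdac2 WT libraries for Gabra5 and 4 of 7 lay below all of them for Gabrd. None of the 8 genes was without overlap, where 0.138% of all genes were. Of the MSN markers, 5 of 13 were called lower in this contrast and none higher, and MSN markers summed to a median of 8720 CPM in HttQ111/+ Hdac2 WT against 11473 CPM in Htt+/+ Hdac2 WT libraries. Fewer MSNs and less RNA per MSN cannot be told apart in RNA of whole striata, and the part of these markers in the values above was not tested. The paper describes neuronal loss in this model as extremely subtle or absent, and states that it did not measure it.

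In contrast 4 edgeR and DESeq2 both called 0 of 8, where 0.00584% of all genes were called by edgeR. Gabra2 alone had an unadjusted p under 0.05 (log2 fold change 0.17, p = 0.0436, adjusted p = 0.652), where 7.52% of all genes did. The 95% intervals of the other 7 genes in contrast 4 ran from −0.15 at the lowest to 0.09 at the highest. The interaction, contrast 4 minus contrast 3, called 0 of 8 by edgeR and by DESeq2 (0.00577% of all genes by edgeR). Gabra5 had the one unadjusted p under 0.05 there (log2 difference −0.21, p = 0.0245, adjusted p = 0.867), where 5.63% of all genes did.

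The mean of contrasts 3 and 4 called 0 of 8 by edgeR and by DESeq2, where edgeR called 1.27% of all genes, 0.432% as higher and 0.836% as lower. At an unadjusted p under 0.05 there were 2 of 8, Gabra2 (log2 fold change 0.20, p = 0.00503, adjusted p = 0.157) and Gabrd (−0.08, p = 0.0368, adjusted p = 0.365), where 12.3% of all genes were. Gabra2 passed with ID series as the covariate, with the replicate block and without the Htt+/+ Hdac2 WT libraries of series A, at values of 0.20 to 0.32 over 13 alternatives.

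The HttQ111/+ mice fall into 2 sets by repeat length. The 8 carriers of ID series V had 131 to 144 repeats, and the 10 carriers of series A and Z had 110 to 118. Repeat length and series cannot be told apart in carriers, whereas Htt+/+ mice of the same series give a comparison without the expanded repeat. No correlation with repeat length was computed across the 2 sets.

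Gabra2, whose alpha subunit is found at synapses, was high in carriers of series V. In HttQ111/+ Hdac2 WT mice the 3 series V libraries had 80.0, 81.1 and 89.9 CPM, and the 4 libraries of series A and Z had 37.4, 48.8, 54.0 and 60.5. In HttQ111/+ Hdac2 KO mice the 5 series V libraries had 73.4, 74.9, 75.1, 78.8 and 96.9 CPM, and the 6 others 48.9 to 60.8. The sets did not overlap in either background. Htt+/+ libraries of series V had 47.4 to 65.5 CPM with Hdac2 WT (n = 5) and 47.4, 54.7 and 79.3 CPM with Hdac2 KO, beside 44.3 to 56.1 and 44.8 to 54.2 CPM in series A and Z.

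Gabrd showed the opposite pattern in mice with Hdac2. The 3 series V carriers had 115, 119 and 120 CPM, and the 4 carriers of series A and Z had 133, 148, 150 and 172. The 8 Htt+/+ Hdac2 WT libraries of all series had 143 to 158 CPM. With Hdac2 KO, the 5 series V carriers had 99.0 to 114 CPM and the 6 others 111 to 123, and these sets overlapped. The summed MSN markers also differed between the sets of carriers. They were 9169 to 10041 CPM in series V and 10195 to 11426 CPM in series A and Z with Hdac2 KO, and 8204 to 8720 against 8118 to 10750 CPM with Hdac2 WT. Their part in the levels of Gabra2 and Gabrd was not tested.

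In the same fit of genotype by series, 2 of the 8 genes were called between HttQ111/+ and Htt+/+ mice within series V, where 5.34% of all genes were called. Gabra2 was higher by 0.51 on the log2 scale (standard error 0.093, adjusted p = 0.000726) and Gabrd differed by −0.20 (standard error 0.042, adjusted p = 0.00285). Within series A and Z edgeR called 0 of 8 and 0 of 17346 genes, and 1 of the 8, Gabra5, had an unadjusted p under 0.05 (p = 0.0161). There Gabra2 was 0.08 (standard error 0.087) and Gabrd −0.02 (standard error 0.039). The difference between the 2 estimates was 0.42 for Gabra2 (p = 0.00217, adjusted p = 0.302) and −0.19 for Gabrd (p = 0.00281, adjusted p = 0.325), so neither passed after adjustment, where 0.121% of all genes did.

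Compared directly, carriers of series V differed from carriers of series A and Z by 0.61 in Gabra2 (adjusted p = 6.59e-05) and −0.24 in Gabrd (adjusted p = 0.000377), the 2 genes called of 8, where 7.36% of all genes were. In Htt+/+ mice the same comparison of series gave 0.18 for Gabra2 (adjusted p = 0.323) and −0.06 for Gabrd (adjusted p = 0.521), and 0 of 8 genes were called by edgeR, where 2.35% of all genes were. One of the 8, Gabra5, had an unadjusted p under 0.05 there (0.21, p = 0.0107).

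**Figure D4:**
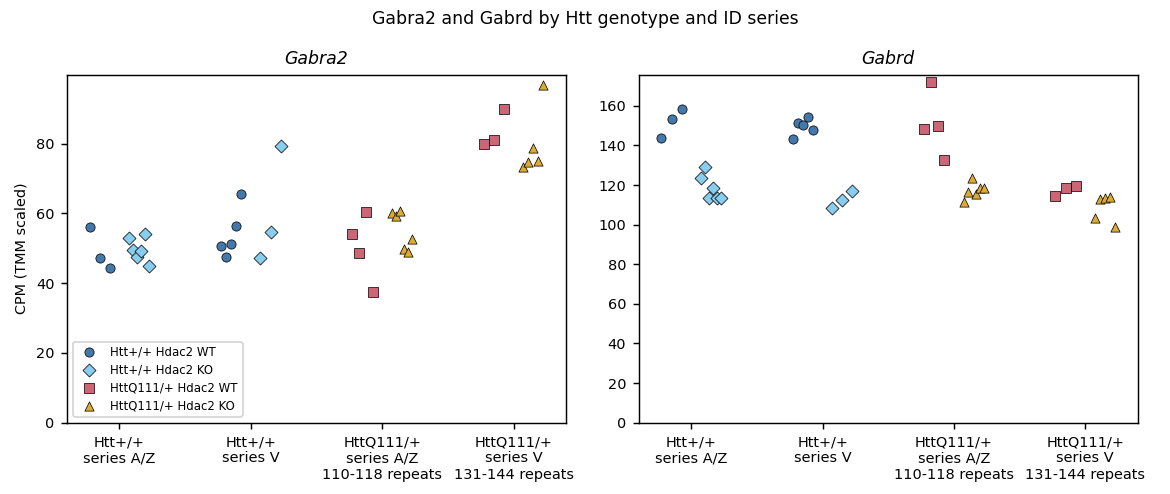
CPM (TMM scaled, linear axis from 0) of Gabra2 and Gabrd by Htt genotype and ID series, with 1 marker per library and shapes for the 4 genotype groups. The 8 HttQ111/+ libraries of series V lie between 73.4 and 96.9 CPM for Gabra2 and the 10 of series A and Z between 37.4 and 60.8, and for Gabrd the 3 series V carriers with Hdac2 WT (115 to 120) lie below the other Hdac2 WT libraries.

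Mice with both changes differed from mice with neither (contrast 5) in 6 of the 8 genes, 3 higher and 3 lower, where 21.2% of all 17088 genes were called, 10.2% as higher and 11% as lower. At an unadjusted p under 0.05 there were also 6 of 8, where 31.8% of all genes were. Gabra2 (log2 fold change 0.42, adjusted p = 0.00282) and Gabra4 (−0.13, adjusted p = 0.0253) joined the 4 genes of contrast 1. With extraction date as the covariate Gabra2 was 0.08 (adjusted p = 0.898) and Gabrb2 −0.20 (adjusted p = 0.547), and the Gabra2 call was also lost without covariates (0.34, adjusted p = 0.0603) and with sex (0.31, adjusted p = 0.0733). The MSN markers moved in the same contrast, with 8 of 13 called lower and 2 higher (median log2 fold change −0.18), and their part in these values was not tested. Gabra4 encodes the alpha subunit that pairs with delta in extrasynaptic receptors, and it had 279, 312 and 362 CPM in Htt+/+ Hdac2 WT and 245, 269 and 317 CPM in HttQ111/+ Hdac2 KO libraries, which overlap. Its call was lost when any of 6 single libraries was left out. Gabra5 was 0.65 (adjusted p = 3.91e-08), Gabrd −0.49 (adjusted p = 1.94e-07), Gabrb2 −0.32 (adjusted p = 0.00127) and Gabrg3 0.15 (adjusted p = 0.0313). The Gabrg3 call was lost without any of 17 single libraries.

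Gabrb1 and Gabrg1 were called in none of the 5 contrasts. Gabrb1, the other beta subunit gene of the 8, had group means of 33.8 to 35.8 CPM and was not called under any of the 14 alternatives to contrasts 1 to 5. Gabrg1 was called higher in 7 of 14 alternatives in contrast 5, with values of up to 0.34 against 0.097 in the fit with surrogate variables, and in 2 of 14 in contrast 2. It had 37.6 ± 3.95 (SD, n = 8), 39.0 ± 4.33 (SD, n = 7), 43.5 ± 2.76 (SD, n = 9) and 44.1 ± 2.89 CPM (SD, n = 11) in Htt+/+ Hdac2 WT, HttQ111/+ Hdac2 WT, Htt+/+ Hdac2 KO and HttQ111/+ Hdac2 KO libraries. Of the 4 neighbours on chromosome 5 none was called in contrasts 1 and 2, and on chromosome 7 Gabrg3 and Gabra5 were both called higher in contrast 1.

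The remaining subunit genes and the genes around the receptor give the setting. Of the 11 other GABA-A subunit genes in the table, 7 passed the count filter. Gabra3 was called higher in contrast 1 (log2 fold change 0.66, adjusted p = 7.35e-10) and contrast 2 (0.39, adjusted p = 1.12e-06). None of these 7 was called in contrasts 3 or 4 by edgeR, where 2 and 0 of them had an unadjusted p under 0.05.

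Of 16 scaffold and trafficking genes, 2 were called higher and 3 lower in contrast 1, and again 2 and 3 in contrast 2. All counts for these lists stand beside the 17.8% of all genes called in contrast 1 and the 16.5% called in contrast 2. Hap1, a huntingtin-associated protein involved in receptor trafficking, was 0.65 in contrast 1 (adjusted p = 2.03e-06) and 0.42 in contrast 2 (adjusted p = 0.000232). Rdx, which anchors alpha-5 receptors to actin, was 0.16 (adjusted p = 0.00233) and 0.13 (adjusted p = 0.00530). Among the lower genes were Clptm1 (−0.20, adjusted p = 0.000219, and −0.16, adjusted p = 0.000991) and Slitrk3 (−0.19, adjusted p = 0.00600, and −0.12, adjusted p = 0.0490).

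Of 8 genes for GABA synthesis, transport and breakdown, 0 were called in contrast 1 by edgeR (4 at an unadjusted p under 0.05) and 3 were called lower in contrast 2. These were Slc32a1, the vesicular GABA transporter (−0.12, adjusted p = 0.0394), Abat (−0.15, adjusted p = 0.0243) and Aldh5a1 (−0.09, adjusted p = 0.00546), which break GABA down. Of 6 GABA-B receptor genes, edgeR called 0 in contrast 1 (2 at an unadjusted p under 0.05) and Kctd16 in contrast 2 (−0.26, adjusted p = 0.00474). Of 3 neuronal chloride transport genes, Slc12a5, the chloride extruder KCC2, was called lower in contrast 1 (−0.13, adjusted p = 0.00951) and contrast 2 (−0.11, adjusted p = 0.0152). No gene of these 4 lists was called in contrasts 3 or 4 by edgeR.

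Within groups, the 8 genes covaried in part. Across the 35 libraries, with group means removed from log2 CPM, 8 of 28 pairs passed an adjusted p of 0.05 for Pearson's r in a permutation test of 100000 shuffles within groups, and 0 of 28 for Spearman's rho. The largest r was that of the 2 beta genes, Gabrb1 with Gabrb2 (r = 0.60, permutation p = 0.00087, adjusted p = 0.0212, rho = 0.50, adjusted permutation p = 0.0573). Gabra2 and Gabrd varied in opposite directions (r = −0.54, adjusted permutation p = 0.0475, rho = −0.48), and so did Gabra5 and Gabrd (r = −0.49, adjusted permutation p = 0.0212, rho = −0.45). Without the 2 libraries farthest from the median of the first gene, r was 0.57, −0.67 and −0.33 for these 3 pairs.

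Gabrb2 with Gabrg3 (r = 0.53), Gabra4 with Gabrg3 (0.46), Gabra2 with Gabrb2 (0.46), Gabrb1 with Gabrg3 (0.46) and Gabra5 with Gabrb2 (0.41) were the other 5 pairs, with adjusted permutation p values of 0.0212 to 0.0475. Their r without the 2 farthest libraries ran from 0.28 to 0.46. With sex and extraction date also removed, 12 of 28 pairs passed for r and 10 for rho. The shuffles there took no account of the terms fitted for sex and date, so those p values can be too small. In the 22 males alone 0 passed for r and 1 for rho. Without the 3 libraries highest in cortical markers, 6 pairs passed for r and 2 for rho. Gabra4 with Gabrg3 (r = 0.26, adjusted permutation p = 0.32), Gabra2 with Gabrb2 (0.43, adjusted permutation p = 0.0692) and Gabrb1 with Gabrg3 (0.43, adjusted permutation p = 0.0761) no longer passed. Gabra2 with Gabra5 did pass (0.57, adjusted permutation p = 0.00672). With sex and extraction date removed from all 35 libraries, that last pair had r = 0.04. Gabra2 and Gabrd are the genes that differed by series in carriers, and the part of the series in their correlation was not tested.

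**Figure D5:**
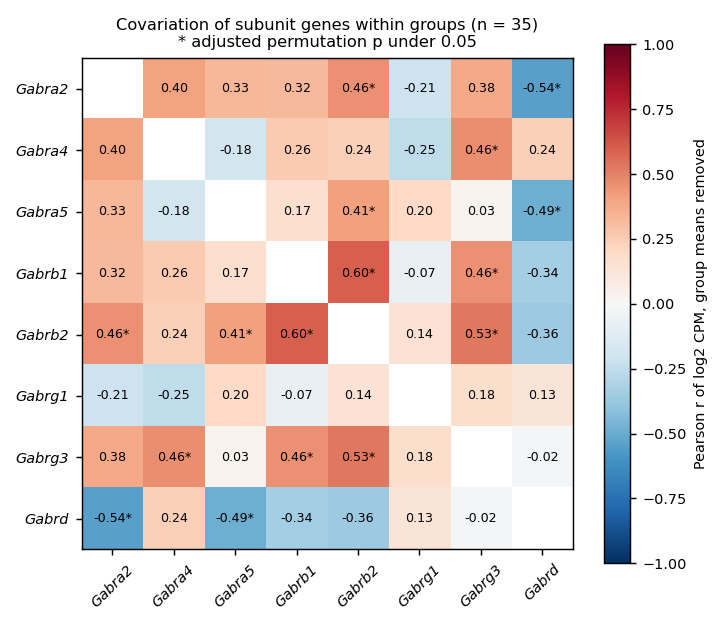
Pearson r between subunit genes over 35 libraries after group means of log2 CPM were removed, with the colour scale from −1 to 1 and a star where the adjusted permutation p is under 0.05. The highest value is Gabrb1 with Gabrb2 (0.60) and the lowest Gabra2 with Gabrd (−0.54).

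Over all 35 libraries, with genotype differences kept, the genes whose log2 CPM was most like each subunit gene were found among 13672 genes. For Gabra5 they were Galnt16 (r = 0.93), Tspan6 (0.91) and Osbpl10 (0.89). For Gabrd they were Ptpn7 (0.93), Gsg1l (0.93) and Cd4 (0.91), and for Gabrb2 Prepl (0.91), Atp2b3 (0.91) and Cacna2d1 (0.90). Gabra2 was most like Gprasp1 (0.87), B4galt6 (0.80) and Mb21d2 (0.79), and Gabra4 like Cdk17 (0.89), St13 (0.89) and Slc2a13 (0.89). Gabrb1 was most like Bmpr2 (0.90), Zbtb20 (0.87) and Lrrc7 (0.87). Gabrg1 followed Prr16 (0.78), Lacc1 (0.75) and Nkx2-1 (0.74), and Gabrg3 followed Wwc2 (0.74), Smarca1 (0.73) and Slc35f1 (0.71). None of the genes named in this way is another subunit gene, and the libraries share batch and genotype in all of these values.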

How the data were processed

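Total RNA was extracted from the striata of 35 mice and sequenced with paired ends from stranded mRNA libraries (Illumina TruSeq). The authors aligned reads to GRCm38 with GSNAP and deposited raw counts per gene over whole Ensembl gene intervals, made with bedtools. Use of strand in counting is not given in the sources used here. The 92 ERCC spike-ins, 6152 genes with a span of at most 250 nt and 2 genes for mitochondrial rRNA were removed, which kept 32863 genes. Genes needed 6 counts in every library of at least 1 group compared. Following the study's design, edgeR 4.0.16 (TMM, quasi-likelihood F test, older form) was fitted to all 35 libraries with 9 surrogate variables (sva 3.50.0), with Benjamini-Hochberg adjustment and a threshold of 0.05. Standard errors were derived from the F statistic and 95% intervals are normal ones. Totals were 50970712 to 77867348 counts per library. Since counts cover introns, levels mix mature and unspliced RNA. CPM per exon kb used GENCODE M21 exon lengths. Groups came from the labels, and each library is 1 mouse.

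The 8 genes and the lists were chosen with earlier results of these data known. All 8 genes are named, with genes of the GABA lists called in any of contrasts 1 to 4, Hdac2, genes overlapping one of the 8, and the 3 genes most like each (average log2 CPM of at least 1). Some genes that this rule names are not reported here. Alternatives were other covariates (none, sex, extraction date, ID series, replicate block), the 2 groups compared alone, males only, no Htt+/+ Hdac2 WT libraries of series A, DESeq2 1.42.0 and its size factors, the newer edgeR method, no count filter and short genes kept. Leaving out the 3 libraries highest in cortical markers, each library in turn, and the fit by ID series were added after seeing the data. The scripts were tested on simulated data.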

Additional observations from a re-analysis of the deposited data

Results flagged for a closer look

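In each group of up to 10 mice the highest and lowest library of every subunit gene was compared with its neighbour, 24 groups of values in all, and such a comparison marks about 1 in 20 groups by chance. Gabra2 in Htt+/+ Hdac2 KO replicate 4 had 79.3 CPM, and the next of the 9 libraries had 54.7, a gap of 0.713 of the whole range. Gabrg3 in HttQ111/+ Hdac2 WT replicate 7 had 58.7 CPM, and the next of the 7 libraries had 74.9, a gap of 0.709 of the range. Replicate 7 is also the library highest in cortical markers (438 CPM), whose part in its Gabrg3 level was not tested.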

How the results depend on the processing

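The number of the 8 genes called stayed within 1.5 times its main value in 87 of 96 combinations of contrast and alternative. With extraction date it was 2 in contrast 1, 0 in contrast 2, 1 in contrast 3 (Gabra5) and 3 in contrast 5. In contrast 3 the date fit called 419 of all 17133 genes, the ID series fit 837 and the fit with surrogate variables 69. With ID series the number of the 8 was 3 in contrast 3 (Gabra2, Gabra5 and Gabrd) and 1 for the mean HttQ111 effect. Without the Htt+/+ Hdac2 WT libraries of series A it was 2 in contrast 3 (Gabra5 and Gabrd) and 2 for the mean effect (Gabra2 and Gabrd). In the 22 males alone 0 of 28 pairs passed for Pearson's r and 1 for rho, while r ran from −0.66 to 0.68. Over all 35 libraries r ran from −0.54 to 0.60. The cause was not tested. The labels do not say that a replicate number marks a pair, and in no contrast did every same-numbered pair correlate over 0.1. The number over 0.1 was 2 of 8 in contrast 1 (−0.15 to 0.28), 1 of 7 in contrast 2, 3 of 6 in contrast 3, 2 of 9 in contrast 4 and 6 of 8 in contrast 5 (0.029 to 0.29), where 4 of 8 were closest to their own number. With the replicate block the mean HttQ111 effect called 1 gene, Gabra2, in place of 0. With 1 library left out, the count was 3 to 6 in contrast 1, 3 to 4 in contrast 2, 4 to 6 in contrast 5 and 0 in the others.

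Of the single values, 56 changed sign, 668 kept their direction and call, 35 gained a call and 41 lost one. The 56 were all of genes not called in that contrast. Without covariates Gabrb1 was −0.0071, −0.038, −0.046 and −0.084 (log2 scale) in contrasts 1, 2, 3 and 5, Gabra4, Gabrb2 and Gabrg1 were 0.015, 0.040 and 0.022 in contrast 4, and Gabra2 was 0.016 in the interaction. With sex Gabrb1 was −0.0087, −0.036, −0.047 and −0.083 in contrasts 1, 2, 3 and 5, and Gabra4, Gabrb2 and Gabrg1 were 0.013, 0.042 and 0.016 in contrast 4. With extraction date Gabra2 was −0.21 and −0.24 in contrasts 1 and 2, Gabrb1 −0.031 in contrast 3, Gabrb2, Gabrg1 and Gabrg3 0.029, 0.036 and 0.012 in contrast 4, and Gabrg1 0.011 in the interaction. With ID series Gabrb1 was −0.039, −0.030 and −0.069 in contrasts 2, 3 and 5, and Gabrg1 0.020 in contrast 4. With the replicate block Gabrb1 was −0.016, −0.023, −0.045 and −0.069 in contrasts 1, 2, 3 and 5, Gabra4, Gabra5, Gabrb2 and Gabrg1 were 0.030, 0.015, 0.097 and 0.018 in contrast 4, Gabra2 was 0.13 in the interaction and Gabrg3 −0.0067 in the mean effect. With only the 2 groups compared Gabrb1 was −0.0012, −0.0089, −0.095, 0.013 and −0.051 in contrasts 1 to 5, and Gabrb2, Gabrg1 and Gabrg3 were 0.030, 0.021 and 0.020 in contrast 4. In males Gabrg3 was −0.0069 in contrast 2, Gabra5, Gabrb2 and Gabrg1 were 0.014, 0.0044 and 0.040 in contrast 4, Gabrg1 was 0.0069 in the interaction and Gabrb1 0.015 in the mean effect. Gabrb1 was −0.0079 in contrast 2 without the count filter and −0.052 in contrast 5 without the series A controls. In the mean effect Gabrb1 was 5.1e-05 with DESeq2's size factors, 0.00060 with the newer edgeR method and 0.0013 without the 3 libraries highest in cortical markers, and without those Gabrg1 was 0.0060 in contrast 4.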
